A study of Rattus norvegicus with 8 samples.

Results

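In the trinucleotide CCG the inner cytosine belongs to a CpG, while the outer cytosine stands just before it and is itself followed by C. Outer cytosines were taken as the cytosines on chromosomes 1 to 20 that the files list in CHG context (H is A, C or T) with C as the following base, and that are listed in all 8 libraries. There were 149877 of them, and 147915 had their inner CpG cytosine, on the same strand, listed in all 8 libraries as well. These 147915 pairs are described here, out of 6307532 cytosines of any context listed in all 8.

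The libraries come from reduced representation bisulfite sequencing (RRBS), which cuts DNA with the enzyme MspI, sequences the ends of short fragments and reads unmethylated cytosine as T after bisulfite treatment. They were made from hippocampus (4 libraries) and hypothalamus (4 libraries) of male Sprague Dawley rats. All were fed DHA (docosahexaenoic acid, a polyunsaturated fatty acid of the omega-3 class), which began at 2 months of age and lasted 6 weeks, so tissue is the only contrast and no library without DHA was analysed here. Both tissues are mixtures of neurons and glia, the labels name no animals, and the files name no genes, so cell type markers could not be read.

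As background, most methylation of mammalian DNA is on CpG cytosines, where maintenance enzymes copy it after replication. Cytosines outside CpG are methylated mainly by DNMT3A in neurons, most often where the next base is A and rarely where it is C. The outer cytosine of CCG is therefore a site of little expected methylation that touches a CpG which may be fully methylated. The pair also matters for the method, because MspI cuts CCGG between its 2 cytosines and is known to be blocked by methylation of the outer one. As no genome of the deposited build was at hand, no stretch of sequence is printed.

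The outer cytosines had 3409906 calls in hypothalamus 3 and 5150397 in hypothalamus 4, and 8806536 to 11786923 in the other 6 libraries. The median per outer cytosine was 20 and 33 calls in hypothalamus 3 and 4 and 55 to 74 elsewhere. Inner CpGs had the same medians to within 1 call. Libraries differed widely in the share of calls read as methylated at cytosines where methylation is rare. At CHH cytosines followed by C (written CCH below), hippocampus 1 and 2 and hypothalamus 2 and 3 had 0.310% to 0.412%, hypothalamus 1 and 4 had 1.003% and 1.012%, and hippocampus 3 and 4 had 1.76% and 1.85%. Each library was also put in 1 of 3 classes (under 20%, 35% to 65%, over 80%) at 86 inner CpGs that had all 3 among the libraries, with at least 15 calls in each. The class was the same at 100% of them between hippocampus 1 and hypothalamus 1 and at 98.8% between hippocampus 4 and hypothalamus 4. The other 26 pairs of libraries shared the class at 17.4% to 38.4%. The 2 libraries of each matching pair may therefore not be independent of each other. Tests over libraries still count all 8 as separate, and values over 6 units have each of the 2 matching pairs averaged.

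Outer cytosines were almost unmethylated in every library. Their level, methylated calls over all calls, was 0.389% in hippocampus 1, 0.335% in hippocampus 2, 1.96% in hippocampus 3 and 2.07% in hippocampus 4. In hypothalamus 1 to 4 it was 1.01%, 0.307%, 0.401% and 0.923%. The 95% Wilson intervals, which cover counting error only, were narrow, as in hypothalamus 3 from 0.395% to 0.408%. Libraries of one tissue thus differed far beyond counting error, and the tissues overlapped. The hippocampus mean was 1.19% ± 0.956 and the hypothalamus mean 0.659% ± 0.356 (SD, n = 4 each). The difference of -0.530 points (hypothalamus minus hippocampus) did not pass when all 70 assignments of libraries were enumerated (two-sided exact permutation p = 0.343). Over the 8 comparisons of single values the adjusted p (Benjamini-Hochberg) was 0.457, and 4 against 4 libraries allow no p below 0.0286.

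The libraries with a higher CCH level had the higher outer level, except that hypothalamus 4 lay above hypothalamus 1 in CCH and below it in outer level. Outer cytosines lay above CCH by 0.206 and 0.218 points in hippocampus 3 and 4. In the other 6 libraries the difference ran from -0.0895 points in hypothalamus 4 to 0.0190 in hippocampus 1. Over 8 libraries it was 0.0431 ± 0.109 points (SD), above 0 in 5 (two-sided exact sign-flip permutation test, p = 0.336, adjusted p = 0.457). Without hippocampus 3 and 4 the mean was -0.0130 points. Less its own CCH level, the outer level was lower in hypothalamus by 0.137 points (exact permutation p = 0.0286, the smallest 4 against 4 allow, adjusted p = 0.0571). The tissues did not overlap there, but only narrowly, with hippocampus 2 at 0.00333 points and hypothalamus 1 at 0.00221. The values furthest from 0 were those of hippocampus 3 and 4 and of hypothalamus 4.

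Within the 4 libraries of lower CCH level (hippocampus 1 and 2, hypothalamus 2 and 3), the tissue difference in outer level was -0.00759 points, and within the 4 of higher level it was -1.05 points. Each set holds 2 libraries of each tissue, where the exact test cannot go below 0.333. The pooled difference thus rested on the set of higher CCH level, where hippocampus 3 and 4 are. The part of the CCH level in the tissue difference was not tested beyond these values.

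The level of the inner CpG splits the pairs sharply. Taking the mean of the 8 library levels, the inner CpG was below 10% at 67403 pairs (45.6%), from 10% to 90% at 49868 (33.7%) and at 90% or more at 30644 (20.7%). Outer cytosines beside methylated CpGs had the higher share of calls read as methylated in every library. How far calls at such low levels reflect methylation was not tested. From the lowest to the highest bin of inner level, the outer level went from 0.317% to 0.463% in hippocampus 1, from 0.287% to 0.382% in hippocampus 2, from 1.6% to 2.44% in hippocampus 3 and from 1.69% to 2.56% in hippocampus 4. In hypothalamus 1 to 4 it went from 0.883% to 1.13%, from 0.256% to 0.340%, from 0.344% to 0.444% and from 0.844% to 0.979%. The rise between these bins, called the gradient below, was 0.315 ± 0.338 points (SD, n = 8) and above 0 in 8 of 8 libraries (two-sided exact sign-flip permutation test, p = 0.00781, the smallest 8 libraries allow, adjusted p = 0.0312). Over the 6 units it was 0.303 points (exact sign-flip p = 0.0312, the smallest 6 allow), and the adjusted p of 0.125 no longer passed. The exact p was below 0.05 in 18 of 20 alternative settings and the adjusted p in 3 of 20. The second count does not measure the gradient alone. Without 1 library the smallest possible exact sign-flip p, 0.0156, gave 0.0625 after adjustment. With at least 20 calls the exact p of the gradient stayed at 0.00781. Its adjusted p was 0.0625 there, because another of the 8 results, the excess over neighbouring cytosines described below, had a larger p. As a ratio it was 1.16-fold in hypothalamus 4 to 1.52-fold in hippocampus 3.

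**Figure D1:**
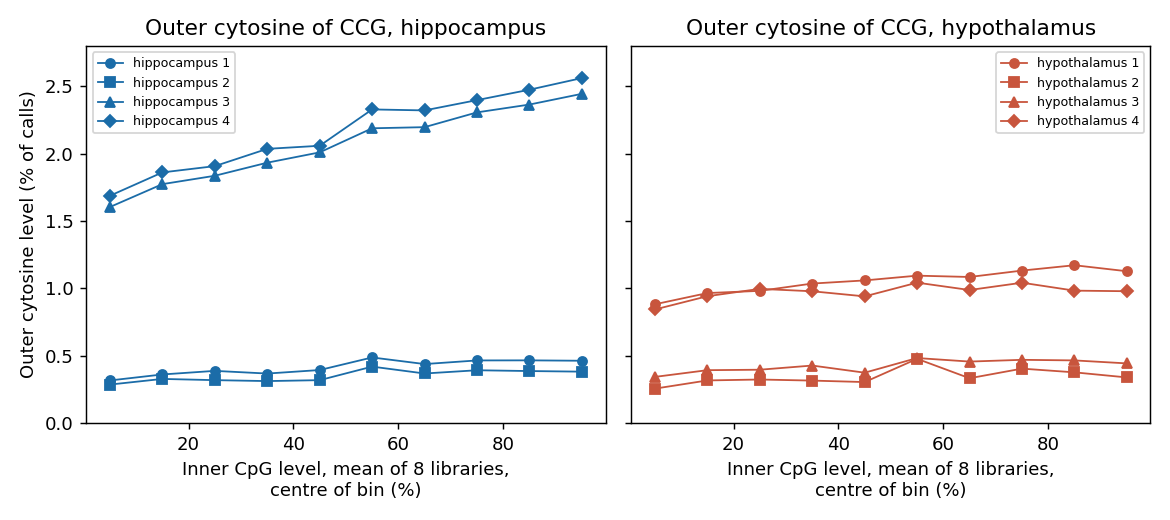
Level of the outer cytosine (y axis, percent of calls) against the inner CpG level in bins of 10 points (x axis), one line per library, hippocampus on the left and hypothalamus on the right. All 8 lines end higher than they start, and hippocampus 3 and 4 run from 1.6% and 1.69% to 2.44% and 2.56%, above every other library in every bin.

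In hippocampus 3 the level rose at each of the 9 steps between neighbouring bins, and in hippocampus 4 at 8 of 9. In hypothalamus 2 most of the rise came early: it went from 0.256% in the lowest bin to 0.317% at 10% to 20%, and was at 0.340% in the highest. Its value at 50% to 60%, 0.478%, stood above its neighbours. With pairs of uneven calls (described below) and outer cytosines of 10% or more left out, that value was 0.334% and the highest bin 0.313%. Those exclusions left hippocampus 3 rising from 1.6% to 2.43%.

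The gradient was not shown to differ between the tissues. Hippocampus libraries averaged 0.489 ± 0.426 points (SD, n = 4) and those of hypothalamus 0.141 ± 0.0728 (SD, n = 4), with overlap (difference -0.348 points, two-sided exact permutation p = 0.229, adjusted p = 0.457). In none of the 10 bins did the outer level differ between tissues (adjusted exact p = 0.400 in each, over 10 bins; 0 bins also at an unadjusted p under 0.05). The gap between tissue means grew from -0.392 points in the lowest bin to -0.740 in the highest. The gradient averaged 0.106 points over the 4 libraries of lower CCH level and 0.524 over the 4 of higher level. Its sign was positive in all libraries of both sets, but the exact sign-flip test over 4 libraries cannot go below p = 0.125.

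Neighbouring cytosines gave a scale for this rise. CCH cytosines within 50 bases on the same strand, each assigned to its nearest pair, rose as well between the same bins, in 8 of 8 libraries and by 0.0691 to 0.227 points. The outer gradient exceeded the CCH gradient by 0.192 ± 0.275 points (SD, n = 8), again in 8 of 8 libraries (exact sign-flip permutation p = 0.00781, adjusted p = 0.0312). The excess was 0.624 and 0.646 points in hippocampus 3 and 4 and only 0.00890 to 0.0966 points elsewhere. Without hippocampus 3 the mean excess was 0.129 points, without hippocampus 4 it was 0.126, and without both it was 0.0448 (exact sign-flip permutation p = 0.0312, adjusted p = 0.125). In the lowest bin the outer level differed from that of the CCH cytosines around it by -0.0168 to 0.0151 points in 7 libraries and by -0.0919 points in hypothalamus 4. In the highest bin it was above CCH in those 7, by 0.00398 points in hypothalamus 2 to 0.661 in hippocampus 4, and below CCH by -0.0371 points in hypothalamus 4. Over the 6 units the excess was 0.185 points (exact sign-flip permutation p = 0.0312, adjusted p = 0.125).

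Contexts other than CCH around the pairs behaved in another way across libraries. Cytosines of CAG, which lie in the neuronal CA context, had a gradient of 0.975 to 1.35 points, a 1.39-fold range over libraries whose CCH levels spanned a 5.98-fold range. CAH cytosines had the largest gradient, 1.78 to 2.41 points, and CTG one of 0.136 to 0.258 points. The gradient of the outer CCG cytosine ranged from 0.0831 points in hypothalamus 2 to 0.874 in hippocampus 4, which is 10.5-fold. Thus in hypothalamus 2 the outer cytosine gained 0.0831 points where CAG gained 1.04, while in hippocampus 4 the gains were 0.874 and 1.07. In ratio CAG rose 4.98-fold in hypothalamus 2 and 1.34-fold in hippocampus 4, and the outer cytosine 1.32-fold and 1.52-fold. CTH cytosines had a gradient of 0.577 to 0.872 points. CCH cytosines also had their largest gradients in hippocampus 3 and 4, 0.217 and 0.227 points. Hypothalamus 1 had 0.149 there and the remaining libraries 0.0691 to 0.0850, a 3.29-fold range in all. At the outer cytosine hippocampus 3 and 4, with 0.840 and 0.874 points, stood further above the other 6 libraries, which had at most 0.245. The differences between contexts other than CCH were not tested.

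**Figure D2:**
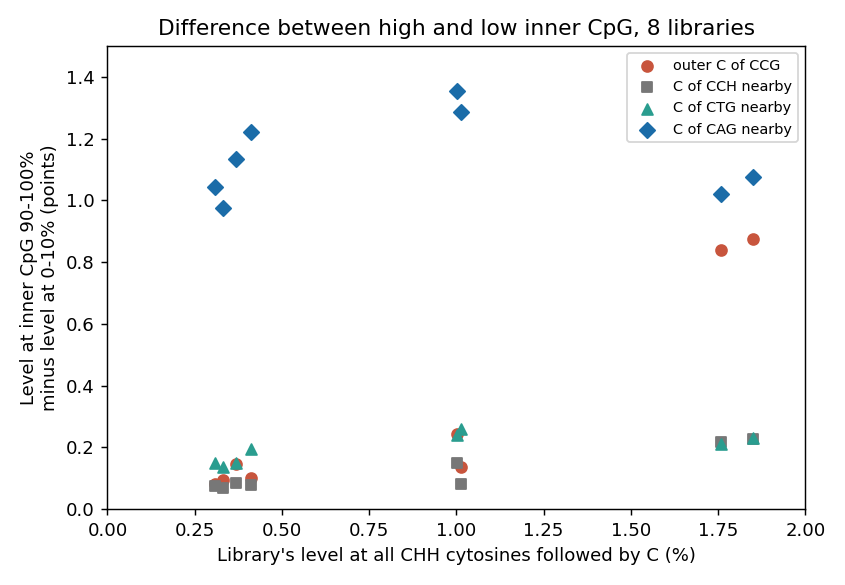
Difference in level between pairs with inner CpG at 90% to 100% and at 0% to 10% (y axis, percentage points) against the level of each library at all CHH cytosines followed by C (x axis, percent), one point per library and context. CAG stays between 0.975 and 1.35 points across the axis, whereas outer CCG lies under 0.25 points in 6 libraries and at 0.840 and 0.874 in hippocampus 3 and 4.

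The gradient was then set out by position, as a description. Cytosines followed by C were set out by their offset from the outer cytosine, from 12 bases before it to 15 after, without those of 10% or more. The mean gradient over 8 libraries was 0.296 points at the outer cytosine itself and -0.0178 to 0.148 at the other 25 offsets. At the base immediately before it, which is also followed by C, it was 0.134. In hippocampus 3 the outer cytosine had 0.824 points against at most 0.288 elsewhere, and in hippocampus 4 it had 0.855 against at most 0.341. The outer cytosine was above all other 25 offsets in these libraries and in hippocampus 1, and above 18 to 24 of them in the other 5.

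**Figure D3:**
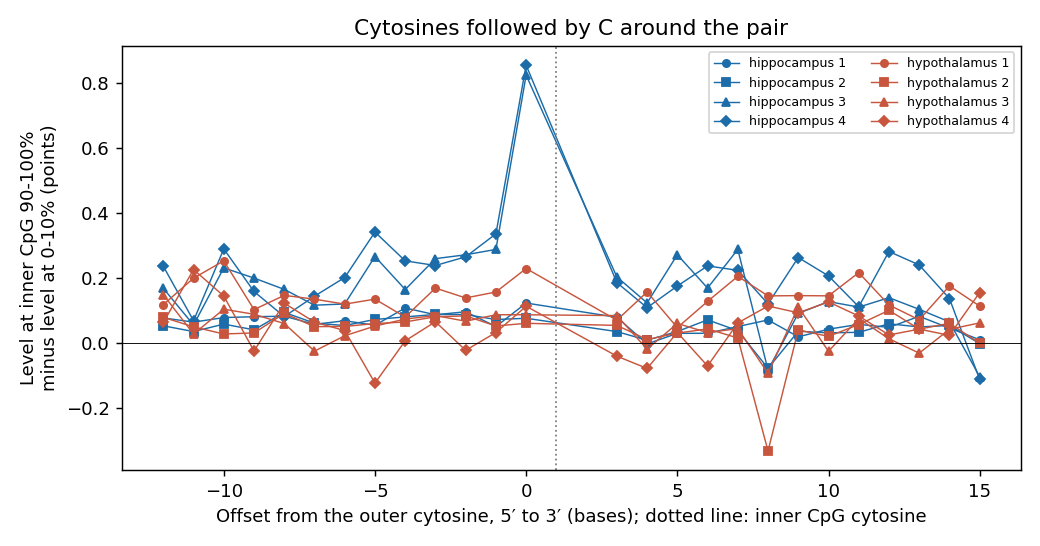
Difference in level between pairs with inner CpG at 90% to 100% and at 0% to 10% (y axis, percentage points) for cytosines followed by C at each offset from the outer cytosine (x axis, bases, offset 0 is the outer cytosine), one line per library. Hippocampus 3 and 4 peak at offset 0 with 0.824 and 0.855 points, and the other libraries have no comparable peak.

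Bases around the pair were then compared, over a family of 13 comparisons with two-sided exact sign-flip permutation tests over 8 libraries and Benjamini-Hochberg adjustment. Over the 6 units none of the 13 passed after adjustment. The 6 comparisons at the smallest exact p that 6 units allow, 0.0312, had an adjusted p of 0.0677, and that of a C before the outer cytosine at inner CpGs of 90% or more had 0.116. A further C before the outer cytosine (CCCG) went with a lower outer level than at pairs with no C listed there. With inner CpGs below 10%, the difference was -0.131 ± 0.159 points (SD, n = 8), below 0 in 8 of 8 libraries (exact p = 0.00781, adjusted p = 0.0203, 23056 and 44347 pairs). By library it ran from -0.383 to -0.00555 points. The levels were 1.44% against 1.82% in hippocampus 4, and 0.253% against 0.258% in hypothalamus 2. With inner CpGs at 90% or more it was -0.0698 ± 0.0632 points, below 0 in 7 of 8 (exact p = 0.0156, adjusted p = 0.0290).

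The base after the CpG could be read only where the files list a cytosine there, on either strand. CCGC was seen at 65468 pairs and CCGG, the MspI site, at 96, and 82351 pairs were not resolved. For most pairs it is therefore unknown whether they are MspI sites. Outer cytosines of CCGG and CCGC differed by 0.00442 ± 0.0823 points (SD, n = 8, 4 libraries above 0, exact sign-flip p = 0.883, adjusted p = 0.883). The sets were not matched for inner level, so this does not show that they are alike. The inner CpG was below 10% at 81 CCGG and 38282 CCGC pairs, and at 90% or more at 2 and 13131. Within CCGC pairs alone, which are no MspI sites, the gradient was 0.317 points in the mean of 8 libraries (exact sign-flip p = 0.00781). With inner CpGs below 10%, CCGC pairs were below unresolved ones by -0.0439 points in mean (8 of 8 libraries, exact p = 0.00781, adjusted p = 0.0203). At 90% or more the difference was -0.0305 points, below 0 in 6 of 8, and did not pass (exact p = 0.0469, adjusted p = 0.0762).

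Strand and chromosome made little difference. The C strand (74518 pairs) and the G strand (73397) differed by -0.00112 ± 0.0146 points (SD, n = 8, exact sign-flip p = 0.836, adjusted p = 0.875). In the highest bin the mean outer level of the 20 chromosomes ran from 1.05% on chromosome 12 to 1.16% on chromosome 8, and in the lowest bin from 0.765% on chromosome 2 to 0.8% on chromosome 13.

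CpG density was compared within a bin, counting other CpGs within 50 bases on the same strand. Where the inner CpG was below 10%, pairs with 6 or more other CpGs (37090) had a lower outer level than pairs with none (954), by -0.108 ± 0.0881 points (SD, n = 8, exact p = 0.0156, adjusted p = 0.0290). After leaving out uneven and highly methylated outer cytosines this was -0.0437 points (exact p = 0.0625). Where the inner CpG was at 90% or more, dense pairs differed from isolated ones by -0.00647 ± 0.119 points (SD, n = 8, exact p = 0.875, adjusted p = 0.875).

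Inner CpGs seldom departed from the other CpGs around them. At 64612 pairs both were below 10%, and at 25962 the inner CpG was at 90% or more and the others at 80% or more. At 299 pairs the inner CpG was below 10% and the others at 80% or more, and there the outer level was above that of the wholly unmethylated pairs in 8 of 8 libraries, by 0.256 to 0.605 points (mean 0.421 ± 0.119, SD; exact sign-flip p = 0.00781, adjusted p = 0.0203). Leaving out uneven and highly methylated outer cytosines kept 292 of these pairs and a difference of 0.121 ± 0.0840 points (exact p = 0.00781). With the other CpGs at 80% or more in both classes, pairs with the inner CpG at 90% or more differed from those with it below 10% by -0.102 ± 0.347 points, above 0 in 2 of 8 libraries (exact p = 0.430, adjusted p = 0.559). After the same exclusions this was 0.177 points, above 0 in 6 of 8 (exact p = 0.156), so a difference that goes with the inner CpG alone was not shown. The reverse case, a methylated inner CpG among unmethylated ones, was met at 17 pairs with 305 to 961 outer calls per library. Their Wilson intervals were wide, as in hypothalamus 3 from 0.180% to 2.36%.

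The tissue difference at inner CpGs was used to ask whether the outer cytosine moves with its CpG. A quasi-binomial model over all CG cytosines with limma-moderated dispersion called 9.38% of 468447 tested cytosines, the rule being an adjusted p under 0.05 together with a difference of at least 10 points. Of the inner CpGs, 69782 were tested and 6317 (9.05%) called, near that background. Of these, 5513 were higher in hypothalamus (background 8.2%), with a median difference of 20.6 points, and 804 in hippocampus (background 1.18%), with -17.9 points. With the dispersion of each cytosine alone, none was called, although 10638 inner CpGs (15.2%, against 15.6% of all CG cytosines tested) had an unadjusted p under 0.05.

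At the 5513 pairs with the inner CpG higher in hypothalamus, hippocampus 1 to 4 had outer levels of 0.351%, 0.329%, 2.03% and 2.12%, and hypothalamus 1 to 4 had 1.07%, 0.329%, 0.442% and 0.974%. Hippocampus 3 and 4 were again the highest, and the tissues overlapped (difference -0.502 points, exact permutation p = 0.400, adjusted p = 0.457). Less each library's CCH level the difference was -0.109 points (exact permutation p = 0.371), opposite in sign to the inner CpGs. For a reference within each library, the level at tested pairs that were not called was taken in the same bins of inner level. Against it the outer cytosines were lower by -0.0965, -0.0423, -0.152 and -0.162 points in hippocampus and by -0.0216, -0.0423, -0.00534 and -0.0268 in hypothalamus. On this scale hypothalamus was higher by 0.0893 points (exact permutation p = 0.0286, the smallest possible, adjusted p = 0.0762), although hippocampus 2 and hypothalamus 2 were equal to 3 digits.

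At the 804 pairs with the inner CpG higher in hippocampus, hippocampus 1 to 4 had outer levels of 0.415%, 0.375%, 2.10% and 2.35%, and hypothalamus 1 to 4 had 1.04%, 0.297%, 0.376% and 0.892% (difference -0.658 points, exact permutation p = 0.314, adjusted p = 0.457). Less each library's CCH level, the difference was -0.265 points (exact permutation p = 0.0286, adjusted p = 0.0571). Against pairs not called in the same bins it was -0.0689 points, with overlap between the tissues (exact permutation p = 0.0857, adjusted p = 0.171). Against pairs not called, both differences had the sign of their inner CpGs, 0.0893 and -0.0689 points beside medians of 20.6 and -17.9. Neither passed after adjustment, and the second was above 0.05 even unadjusted. The pairs were picked by the tissue labels of these same libraries, and the permutation did not pick them anew. Both cytosines of a pair also lie as a rule in the same reads, and errors shared by their calls were not tested. The agreement in sign thus does not decide whether the outer cytosine moves with its CpG.

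**Figure D4:**
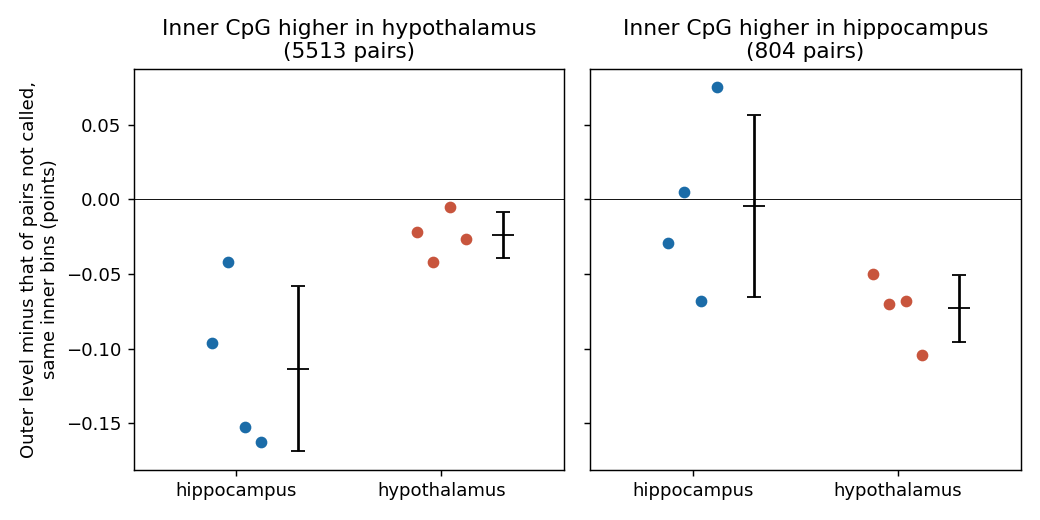
Outer level minus the level at pairs not called in the same bins of inner CpG level (y axis, percentage points), one point per library by tissue, with the mean and SD of 4 libraries as bars. Left, 5513 pairs with inner CpG higher in hypothalamus, where 3 hypothalamus libraries lie nearer to 0 than every hippocampus library and hypothalamus 2 lies level with hippocampus 2; right, 804 pairs with inner CpG higher in hippocampus, where the tissues overlap.

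Single outer cytosines with substantial methylation were rare. The mean of the 8 library levels was under 0.5% at 35013 pairs, from 0.5% to 1% at 58325, from 1% to 2% at 48899, from 2% to 5% at 5512 and 5% or more at 166 (0.112%). It was 10% or more at 77 pairs, 20% or more at 32 and 50% or more at 11. No methylated call at all was seen at 26.1% of outer cytosines in hippocampus 4 and at 92.0% in hypothalamus 3, the library with the fewest calls. At like depth, medians of 67 and 68 calls, the share was 31.3% in hippocampus 3 and 83.0% in hypothalamus 2. The CCH levels of these libraries were 1.76% and 0.310%.

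Of the 166 outer cytosines with a mean of 5% or more, none was called between the tissues by the same quasi-binomial model over all 43832 tested CHG cytosines (at least 5 points), where 0.0274% were called in all, 0.0228% higher in hypothalamus and 0.00456% higher in hippocampus. Their lowest Benjamini-Hochberg adjusted p was 0.216. Among them 15 had an unadjusted p under 0.05 (9.04%, against 7.80% of all CHG cytosines tested). limma on logit levels called none of the CHG cytosines tested, with 9 of the 166 under 0.05 (5.42%, against 7.45% of all). Leaving out hippocampus 1 gave 2 calls (1.09% of members, against 0.152% of all CHG cytosines tested) and leaving out hypothalamus 2 gave 3 (1.76% against 0.0479%), each higher in hypothalamus.

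The strongly methylated outer cytosines stood apart in their call counts. A call needs a C or a T in the read, and as a rule both cytosines of a pair lie in the same reads, so that the inner cytosine had 0.9 to 1.1 times the calls of the outer one at 99.7% of pairs. Of the 32 outer cytosines at 20% or more, 10 had such even calls over the 8 libraries summed, and 6 had them in every library. The other 4, which were those of the 10 at 50% or more, ran from 0.243 to 2.23 times by library. At 15 the inner cytosine had fewer than 0.9 times the outer calls, as at 0.116% of all pairs, and at 7 it had more than 1.1 times, as at 0.141%. Taken the other way round, from the call counts, the 172 pairs with fewer inner calls had an outer level of 4.40% to 6.64% by library. This was above the pairs with even calls by 4.54 ± 0.482 points (SD, 8 of 8 libraries, exact sign-flip p = 0.00781, adjusted p = 0.0203). At 41 of these 172 the outer level was 10% or more, against 27 of 147534 pairs with even calls. Their median outer level was 1.36%, against 0.825% at pairs with even calls, so that a minority of them carried the level. The 209 pairs with more than 1.1 times the inner calls were above even pairs as well, by 2.45 ± 0.351 points in 8 of 8 libraries (exact sign-flip p = 0.00781, adjusted p = 0.0203), with a median of 0.922%.

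The pair on chromosome 11 at 71876743 (outer cytosine, C strand; positions are as deposited, and the processing notes name build rn5) showed this by library. It was picked after its values were seen, as one of the 5 with the widest spread among the 32. Hippocampus 1 to 4 gave an outer level of 67.9%, 68.8%, 12.5% and 2.38%, and hypothalamus 1 to 4 gave 72.2%, 42.5%, 56.5% and 0%, where 0 of 23 calls allow up to 13.0% (3 counts of the total). The shortfall of inner calls, as a share of the outer calls, was 75.0%, 68.8%, 12.5% and 2.38%, and 72.2%, 52.5%, 56.5% and 0%. The 2 series ran together, and hippocampus 1 and hypothalamus 1 were alike, as were hippocampus 4 and hypothalamus 4. In outer level, however, hippocampus 2 was nearer still to hippocampus 1.

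A pair on chromosome 4 at 216067612 (G strand), chosen in the same way, repeated the pattern. Hippocampus 1 to 4 gave an outer level of 54.5%, 48.0%, 4.35% and 6.25%, and hypothalamus 1 to 4 gave 43.2%, 0%, 31.2% and 0%, with 45 and 14 calls behind the zeros. The shortfall of inner calls was 56.8%, 58.0%, 2.17% and 0% in hippocampus and 40.5%, 0%, 31.2% and 0% in hypothalamus. Over the 32 pairs there were 120 values of a pair in a library with fewer than 0.9 times the inner calls. In 105 of them (87.5%) the outer level lay within 10 points of the shortfall. Over all 172 pairs with fewer inner calls this held for 275 of 897 such values (30.7%).

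**Figure D5:**
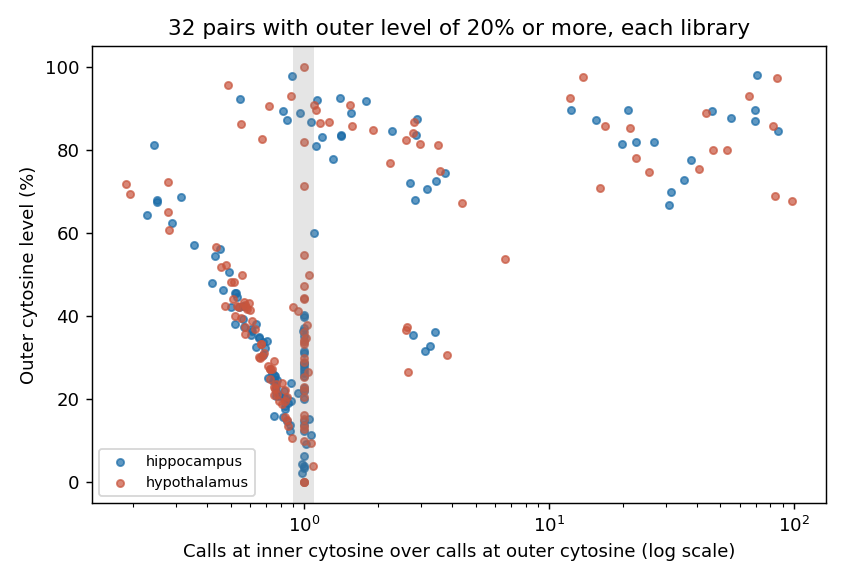
Outer cytosine level (y axis, percent) against calls at the inner over calls at the outer cytosine (x axis, log scale) for the 32 pairs with an outer level of 20% or more, one point per pair and library; the grey band marks 0.9 to 1.1. Left of the band the median level is 67.7% over 10 points at a ratio under 0.3, most of them libraries of the pair on chromosome 3 at 33230041. It is 22.3% from 0.7 to 0.9, with single points up to 97.8% there. The 72 points right of the band run from 26.5% to 98.0%.

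Among 19561 pairs with at least 30 outer calls in every library, the 5 with the highest outer level are given as a description. The first lies on chromosome 4 at 209838542 (C strand). Its outer cytosine was at 66.7% to 77.7% in hippocampus and 70.8% to 79.9% in hypothalamus, beside an inner CpG at 71.1% with 29.3 times as many calls. That inner CpG had 2823 to 7791 calls by library, where the library medians of inner CpGs were 20 to 74. The outer cytosine on chromosome 3 at 33230041 (C strand) was at 57.1% to 67.6% and 60.7% to 71.7%, and its inner CpG had 0.251 times as many calls. The outer cytosine on chromosome 2 at 402161 (C strand) had 31.7% to 36.3% and 26.5% to 37.5%, with an inner CpG at 12.4% and 2.97 times the calls. Call counts were thus uneven at all 3, and the tissues overlapped at each.

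The outer cytosine on chromosome 10 at 28344433 (G strand) had 21.8% to 39.3% in hippocampus and 23.6% to 44.2% in hypothalamus, while its inner CpG was at 0.106% in the mean of 8 libraries, with 0.615 times the calls. Its outer level also exceeded the inner by most among the 19462 pairs with at least 30 calls at both cytosines in every library. The pair on chromosome 7 at 100119408 (C strand) was unlike the other 4, because its calls were equal at both cytosines in every library. There hippocampus 1 to 4 had outer levels of 28.7%, 31.2%, 39.7% and 27.1%, and hypothalamus 1 to 4 had 25.3%, 36.2%, 34.4% and 33.8%, with 32 to 141 calls, and the inner CpG was at 94.8%. The lowest start of a Wilson interval was 17.3%, in hypothalamus 1, and the values of the tissues overlapped.

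A pair on chromosome 3 at 106747954 (G strand) had an unmethylated inner CpG, 3.58% in mean, and equal calls at both cytosines. Hippocampus 1 to 4 gave an outer level of 12.3%, 14.8%, 22.8% and 13.8%, and hypothalamus 1 to 4 gave 44.2%, 9.93%, 54.7% and 13.6%, with 66 to 310 calls. Hypothalamus 1 and 3 were high and hypothalamus 2 and 4 were within or below the hippocampus range. The pair on chromosome 3 at 57084198 (C strand), also among the 5 of widest spread, had even calls and an inner CpG at 92.9%. Hippocampus 1 to 4 gave an outer level of 37.3%, 3.45%, 28.6% and 26.4%, and hypothalamus 1 to 4 gave 20.5%, 34.7%, 50% and 22.9%, so that only hippocampus 2 was low.

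The edge of the selection is the listing itself, since every listed cytosine has at least 10 calls. Just inside it, 19166 pairs with 10 or 11 calls in the shallowest library at either cytosine had outer levels of 0.308% to 2.08% by library, close to those of all pairs. Outside it, 1962 outer cytosines were listed in all 8 libraries without their inner CpG. Most were not shown to lie near the limit, as for 1575 of them the inner cytosine was listed in no library.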

How the data were processed

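RRBS libraries (MspI digestion, fragments of 150 to 300 bases, bisulfite treatment, Illumina sequencing, per the labels' protocols) were used as deposited. The submitters' processing notes name Bowtie and build rn5 without a role. For the methylation caller, trimming and duplicates, the tool is not given in the sources used here. For each cytosine the authors deposited counts of methylated and of all calls, and their ratio as a fraction, which was not used. Every listed cytosine had at least 10 calls, and totals were 178178404 to 625653602 calls per library.

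Levels are methylated over all calls, summed over pairs. Inner bins use the mean of the 8 library levels. Single values were compared by two-sided exact permutation tests over libraries (tissues) or exact sign-flip tests (within libraries), with Benjamini-Hochberg adjustment over each family. Cytosines were tested over all CG or all CHG cytosines of mean level 5% to 95% with a quasi-binomial model, its dispersion moderated by limma 3.58.1 (R 4.3.3) and not below 1. On simulated counts for 60000 CG cytosines it recovered 24.2%, 58.3% and 98.5% of differences of 15, 25 and 40 points. Of its 128 calls there, 6 (4.69%) were false. For 43832 CHG cytosines it recovered 9.38%, 50.0% and 92.2% at 10, 20 and 30 points, and 11 of 112 calls (9.82%) were false. The simulation had the same fixed dispersion at every cytosine and equal expected levels in the libraries of a tissue. The spread between the real libraries was not simulated, so these shares may not hold for it.

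Pairs named are, by rule, the 5 of highest outer level with at least 30 outer calls in every library, called outer cytosines (none) and the 3 whose outer level exceeds the inner by most, with 30 calls at both. The 5 of widest spread between libraries among outer cytosines of 20% or more were added after their values were seen, with no limit on calls. The members and all lists were chosen with earlier results of these data known. The 13 comparisons of bases, density, neighbours and call counts were added to the planned ones. The gene table at hand has another assembly (GRCr8), so no gene is named. The labels do not say whether libraries came from separate animals. Hippocampus 1 and hypothalamus 1 shared the class at 100% of 86 inner CpGs, and hippocampus 4 and hypothalamus 4 at 98.8%. These libraries may not be independent, although tests over 8 libraries count them so, and a shared animal was not tested. The p-values measure only the spread between these libraries.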

Additional observations from a re-analysis of the deposited data

Results flagged for a closer look

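In 34 groups of 4 libraries, 2 had a library far from the others relative to their range, where chance gives about 1 group in 20. The number flagged is thus close to that share, and the groups draw on the same 8 libraries, so both are given as a description. The outer level minus the CCH level was -0.0895 points in hypothalamus 4 and -0.0110 to 0.00221 in the other 3 hypothalamus libraries. At the pair on chromosome 3 at 146598515, the outer level was 60.0% in hippocampus 2, from 10 calls, and 9.23% to 15.2% in the other 3 hippocampus libraries.

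A signal also appeared at outer cytosines that no comparison used. The 1962 outer cytosines listed in all 8 libraries without their inner CpG had a level of 8.06% to 10.1% by library, against 0.307% to 2.07% at the pairs. Their median was 1.04%, and 138 of them (7.03%) had a mean level of 50% or more, against 11 of 147915 pairs. For 1575 of them the inner cytosine was listed in no library, and 79 of these were at 50% or more.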

How the results depend on the processing

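Leaving out uneven pairs, pairs of 10% or more, hippocampus 3 and 4 together, subtracting pairs not called, the sets by CCH level and the 6 units in the 13 comparisons are alternatives chosen after seeing the data. Of those planned, subtracting the CCH level cannot change a gradient. Depth limits single cytosines in hypothalamus 3.

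The mean gradient kept its sign in 20 of 20 alternatives, as did its mean excess over CCH in 21 of 21. The excess was not above 0 in all 8 libraries in every setting, since its exact sign-flip p then would be 0.00781. It was 0.0469 with at least 20 calls, 0.0391 without pairs of 10% or more, and 0.0156 with bins by each library, CCGC pairs or even pairs. Passing here refers to the exact p before adjustment. The adjusted p of the gradient also depends on the exact p of the excess, as both are among the 8 results. Both failed within the 4 libraries of lower CCH level (0.106 and 0.0293 points) and of higher level (0.524 and 0.355), where p cannot go below 0.125. Adjusted over the 8 results, the gradient passed in 3 of 20 alternatives and the excess in 4 of 21 (unweighted levels, 20-point bins, without pairs of 50% or more and, for the excess, the window of 20 bases). With at least 20 calls the adjusted exact p was 0.0625 and 0.188, without pairs of 10% or more 0.0625 and 0.156, with bins by each library, CCGC pairs or even pairs 0.0625 for both, and over the 6 units or without hippocampus 3 and 4 0.125 for both. Without 1 library the gradient was 0.235 to 0.348 points and the excess 0.126 to 0.219, with exact sign-flip p of 0.0156, the smallest 7 allow, and 0.0625 adjusted, above 0.05. The tissue difference in outer level passed with the CCH level subtracted (-0.137 points), and so did that at pairs with inner CpG higher in hippocampus (-0.265), but not that at pairs with inner CpG higher in hypothalamus (-0.109, exact p = 0.371); adjusted, the first 2 had exact permutation p = 0.0571. Without 1 library these 3 differences, unadjusted for CCH, ran from -0.814 to -0.236, -0.970 to -0.313 and -0.794 to -0.198 points, and that in gradient from -0.480 to -0.217, none past the test. At pairs with inner CpG higher in hypothalamus it reversed to 0.0893 points against pairs not called and to 0.0456 in the libraries of lower CCH level. The outer minus CCH level reversed to -0.0130 without hippocampus 3 and 4. CCGG minus CCGC reversed to -0.0142 with at least 20 calls, -0.00876 with replicates 1 and 4 averaged, -0.00973 in the libraries of lower CCH level and -0.00290 at even pairs, and without 1 library ran from -0.0188 to 0.0198. The cause of these reversals was not tested.

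Inner CpGs called numbered 6317, against 3214 with at least 20 calls (10.3% of those tested, 10.7% of all CG), 3226 at a doubled minimum difference (4.62%, 4.71% of all CG) and 0 with each cytosine's own dispersion. Without 1 library they were 4473 to 6721 (6.43% to 9.62% of those tested, 6.66% to 10% of all CG), and outer cytosines called were 0 to 3 (0% to 1.76%, 0.0185% to 0.152% of all CHG).

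Replicate numbers were tried as a block. Deviations of inner levels correlated by 0.258, 0.0531, 0.0635 and 0.236 between libraries of the same number, each the highest for both libraries, but not all above 0.1, so the numbers were not taken to pair all libraries. With the replicate block 5 outer cytosines were called (3.01% of members, 0.671% of all CHG), all higher in hypothalamus and among them chromosome 3 at 106747954 (14.7 points, limma-moderated adjusted p = 0.0495), and 8161 inner CpGs (11.7%, 11.9% of all CG), and the tissue differences had exact sign-flip p of 0.375 in outer level (-0.530 points), where 4 pairs allow 0.125.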
